A study of Homo sapiens with 24 samples.

Results

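The genes described here are 9 transcription factors of the myeloid lineage: CEBPA, CEBPB, CEBPD, CEBPE, SPI1, IRF8, GFI1, RUNX1 and KLF4. They were taken by name, and all 9 had at least 1 probe set that carries a single gene symbol, among 12165 such genes. Their 22 probe sets were 11 for RUNX1, 3 for CEBPD, 2 for KLF4 and 1 for each of the other genes, and a gene was read from whichever of its probe sets was brightest on average. Total RNA came from 4 human acute myeloid leukemia (AML) cell lines and was measured on 24 Affymetrix arrays. MOLM-14 and U937 are of monocytic type, and MOLM-14 carries a KMT2A fusion and a mutated FLT3 receptor. HL-60 is of promyelocytic type and KG-1 of early myeloblast type. Cells were kept for 24 h with 4 µM R406, an inhibitor of SYK and other tyrosine kinases, or with the solvent dimethyl sulfoxide (DMSO), and each of the 8 groups had 3 arrays. The dose is that of the treatment protocol, while the design text gives the same figure in mM. Each line stands for 1 leukemia. Separate cultures for the 3 arrays of a group are not stated in the labels, so a p-value here measures only how these samples spread, which may be technical. In RNA from whole cultures, a change in the share of cells of a kind and a change in the RNA per cell cannot be told apart.

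These factors act in a sequence during blood formation. RUNX1 and SPI1, which encodes the ETS factor PU.1, act from stem and progenitor cells onward, and C/EBP alpha, from CEBPA, is needed to pass from the common myeloid progenitor to the granulocyte and monocyte progenitor. C/EBP beta and C/EBP delta, from CEBPB and CEBPD, are related leucine zipper factors induced by inflammatory signals, and C/EBP epsilon, from CEBPE, serves late granulocyte maturation. GFI1 is a zinc finger repressor that favours neutrophils over monocytes, whereas IRF8, a partner of PU.1, and KLF4, a zinc finger factor, favour monocytes.

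The upstream sequences of 4 members are shown first, since these had the highest absolute change under R406 in a line: KLF4 in MOLM-14, CEBPB in U937, IRF8 in HL-60 and GFI1 in KG-1. Each is the 250 bases before the outermost RefSeq start in GRCh38.p14, written 5′ to 3′ on the strand of the gene. Capitals mark matches, on either strand, to 9 short motifs: TTGCNNAA for C/EBP, GAGGAA for PU.1, TGTGGT for RUNX, AAATCA for GFI1, GGGNGTGG for KLF, GGGCGG for the GC box, TGACG for the core of a cAMP response element, TTCNNNGAA for STAT factors and CACGTG for MYC. The windows lie at chr9:107489770-107490019 on the minus strand for KLF4, chr20:50190333-50190582 on the plus strand for CEBPB, chr16:85902580-85902829 on the plus strand for IRF8 and chr1:92486926-92487175 on the minus strand for GFI1.
KLF4: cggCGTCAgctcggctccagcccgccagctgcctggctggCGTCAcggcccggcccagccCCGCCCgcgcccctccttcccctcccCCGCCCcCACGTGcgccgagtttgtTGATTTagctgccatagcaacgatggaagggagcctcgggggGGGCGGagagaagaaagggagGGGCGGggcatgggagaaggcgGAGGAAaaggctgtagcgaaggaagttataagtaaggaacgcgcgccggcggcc
CEBPB: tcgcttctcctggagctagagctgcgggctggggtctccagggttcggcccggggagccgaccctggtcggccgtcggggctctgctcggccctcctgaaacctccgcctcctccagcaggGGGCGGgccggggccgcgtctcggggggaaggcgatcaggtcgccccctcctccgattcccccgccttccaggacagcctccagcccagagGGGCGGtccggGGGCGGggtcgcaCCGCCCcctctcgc
IRF8: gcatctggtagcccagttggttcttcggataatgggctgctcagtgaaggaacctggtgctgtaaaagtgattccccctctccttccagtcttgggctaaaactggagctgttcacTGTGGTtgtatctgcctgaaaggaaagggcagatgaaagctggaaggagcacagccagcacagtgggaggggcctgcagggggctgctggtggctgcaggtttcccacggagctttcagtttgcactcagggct
GFI1: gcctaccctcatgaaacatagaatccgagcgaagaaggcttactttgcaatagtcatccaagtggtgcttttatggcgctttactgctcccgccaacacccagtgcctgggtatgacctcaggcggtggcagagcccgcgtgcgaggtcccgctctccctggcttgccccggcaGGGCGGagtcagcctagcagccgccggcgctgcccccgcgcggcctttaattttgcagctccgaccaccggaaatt
KLF4 held 4 GC boxes, 2 matches to the cAMP element core, and 1 match each to the PU.1, GFI1 and MYC motifs. CEBPB held 4 GC boxes, GFI1 held 1, and IRF8 held 1 RUNX motif. A GC box was present in 42.6% of all 35116 RefSeq windows of this length, the cAMP element core in 21.2%, the PU.1 motif in 23.6%, the GFI1 motif in 11.6%, the RUNX motif in 11% and the MYC motif in 6.34%. The C/EBP, KLF and STAT motifs, present in 9.05%, 15.7% and 6.57% of windows, had no match in these 4. These matches describe letters in the window and are not binding sites measured here, and CEBPB, IRF8 and GFI1 have further RefSeq starts whose windows are not printed. Windows were searched for 7 of the 9 members, without CEBPD and SPI1.

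Array medians lay between 19.1 and 21.4, and no detection calls were used, so a value near or below these medians may be background. The R406 arrays of MOLM-14 and KG-1 had a mean correlation with the other arrays of their group of 0.994 to 0.996, and all other arrays one of 0.998. KG-1 R406 replicate 2 was the lowest, and results that turn on it are also given without it. The log2 ratio of 3′ over 5′ ACTB probe sets, which moves with RNA quality, was 0.466 to 0.516 in MOLM-14 DMSO and 0.817 to 0.834 in MOLM-14 R406, and 0.687 to 0.764 in KG-1 DMSO and 0.793 to 0.967 in KG-1 R406. In HL-60 it was 0.808 to 0.910 in DMSO and 0.717 to 0.778 in R406, and the U937 groups overlapped. Its part in the changes below was not tested. Of 7 measured myeloid markers, PTPRC was at 444 or more in every group, MPO reached 6416 in HL-60 DMSO and CD34 reached 999.7 in KG-1 R406. Outside HL-60, MPO was at 9.73 to 69.2, and outside KG-1, CD34 was at 14.8 to 18.1. ANPEP reached 571 in HL-60 DMSO but was at 7.16 and 8.60 in MOLM-14. CSF1R was at 13.4 to 19.0 in the DMSO groups, and ITGAM was highest in KG-1 DMSO, at 487. CD14, the monocyte receptor, was at 5.56 to 7.80 in every group of MOLM-14, U937 and KG-1. This defining monocyte marker was thus below the array medians in MOLM-14 and U937. Only in HL-60 was CD14 above them, at 279 in DMSO and 853 in R406. Of markers of other lineages, the highest group mean was 23.1 among 6 erythroid and 23.4 among 5 B cell markers. In MOLM-14, 2 erythroid markers rose (summed level 51.8 to 54.5 in DMSO, 57.9 to 69.6 in R406) and 1 B cell marker rose (45.9 to 49.9, and 52.2 to 55.9), and in KG-1 1 erythroid marker rose (55.5 to 59.3, and 61.6 to 66.3). Of 7 megakaryocyte markers, 3 rose in MOLM-14 (67.0 to 73.0, and 81.8 to 93.5), and in KG-1 2 rose while ITGA2B fell from 75.6 to 30.8 (112 to 145, and 86.2 to 90.6). Of 9 T and NK cell markers, 3 rose in KG-1 (summed level 375 to 394 in DMSO, 629 to 758 in R406), and 3 rose and 1 fell in MOLM-14 (207 to 226, and 334 to 372). NKG7 had group means of 115 to 948, the highest in U937, and CD3E of 5.97 to 11.0. Of 10 fibroblast and epithelial markers, 2 rose in KG-1 (88.3 to 92.8 in DMSO, 176 to 270.0 in R406), and COL3A1 went there from 7.39 to 139. In MOLM-14 1 rose and KRT18 fell from 176 to 131 (summed level 259 to 271 in DMSO, 230.4 to 248 in R406). No marker was at 0, and their part in the results was not tested.

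In DMSO the 9 genes were distributed unevenly over the lines. HL-60 had the highest level of CEBPA, CEBPD, CEBPE, SPI1 and GFI1, MOLM-14 the highest of IRF8 and KLF4, and U937 the highest of CEBPB, while KG-1 was lowest for CEBPA, IRF8, GFI1 and KLF4. All 9 members differed between the DMSO groups by limma's moderated F test (adjusted p at most 0.00348), where 68.1% of all genes did. Of the 54 pairwise differences of the members between lines, 47 passed. The share of all genes called was 47% for MOLM-14 against U937, 46.1% for MOLM-14 against HL-60, 51.2% for MOLM-14 against KG-1, 48.2% for U937 against HL-60, 50.9% for U937 against KG-1 and 48.7% for HL-60 against KG-1.

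**Figure D1:**
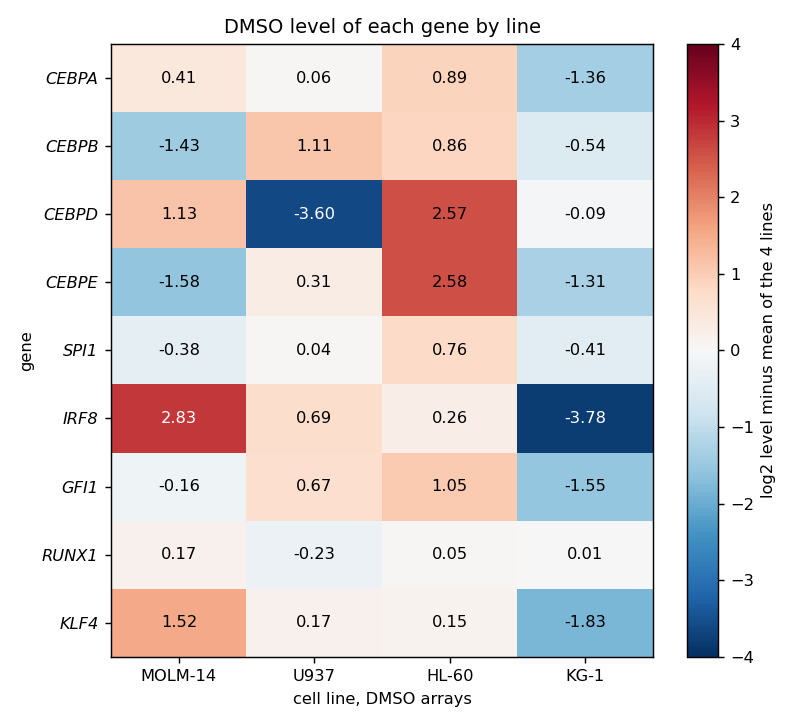
DMSO level of each gene (rows) in each line (columns) as log2 of the intensity plus 1, mean of 3 arrays, minus the mean of the 4 lines for that gene. IRF8 spans from 2.83 in MOLM-14 to -3.78 in KG-1, and RUNX1 stays between -0.23 and 0.17.

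IRF8 and CEBPD spanned the widest range. IRF8 intensities on the DMSO arrays were 1719, 1768 and 1734 in MOLM-14, 401, 390.5 and 389 in U937, 292, 298 and 287 in HL-60, and 16.4, 17.4 and 16.6 in KG-1. The KG-1 arrays were below the array medians, and no groups overlapped. The step from MOLM-14 to U937 was 2.14 ± 0.11 on the log2 scale (SE, limma, adjusted p = 1.18e-13), that from U937 to HL-60 was 0.43 ± 0.11 (adjusted p = 0.00230) and that from HL-60 to KG-1 was 4.04 ± 0.11 (adjusted p = 6.03e-19). CEBPD was at 566, 542 and 534 in HL-60, 209, 189 and 204 in MOLM-14, 98.99, 85.4 and 74.1 in KG-1, and 8.52, 6.26 and 5.36 in U937. The U937 values were far below the array medians, and HL-60 exceeded U937 by 6.17 ± 0.14 (adjusted p = 5.80e-20). The other probe sets of CEBPD had means of 7.78 and 7.48 over all arrays, and averaging all its probe sets lowered the range between lines from 6.17 to 2.64.

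CEBPA and GFI1 shared their order at both ends, with HL-60 highest and KG-1 lowest. CEBPA was at 2240 ± 129 in HL-60, 1605 ± 97.1 in MOLM-14, 1254 ± 63.6 in U937 and 468 ± 21.3 in KG-1 (mean ± SD, n = 3), and each neighbouring step passed the test, the lowest of them 0.36 ± 0.080 between MOLM-14 and U937 (limma, adjusted p = 0.000715). GFI1 was at 826 ± 30.0 in HL-60, 637 ± 59.8 in U937, 357 ± 20.5 in MOLM-14 and 136 ± 10.5 in KG-1, and again each neighbouring step passed, from 0.38 ± 0.073 (HL-60 over U937) to 1.38 ± 0.073 (MOLM-14 over KG-1). CEBPE, the late granulocyte factor, was at 232 ± 10.02 in HL-60 and 47.7 ± 5.06 in U937, a step of 2.26 ± 0.14. KG-1 (14.8 ± 1.70) and MOLM-14 (12.1 ± 1.03) did not differ in CEBPE beyond their spread (0.27 ± 0.14, limma, adjusted p = 0.128), and both were below the array medians.

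CEBPB and KLF4 ran in other orders. CEBPB was at 1196 ± 41.6 in U937 and 1010 ± 77.9 in HL-60, which did not pass the test (0.25 ± 0.11, limma, adjusted p = 0.0755), then at 382 ± 25.5 in KG-1 and 205 ± 6.54 in MOLM-14. MOLM-14 thus had the lowest CEBPB level of the 4 lines and the highest IRF8 level. KLF4 was at 76.6 ± 6.69 in MOLM-14, 29.6 ± 3.63 in U937, 29.0 ± 1.40 in HL-60 and 6.59 ± 0.097 in KG-1, and U937 and HL-60 could not be separated (0.023 ± 0.11, adjusted p = 0.900). SPI1 was at 35.4 ± 3.78 in HL-60, 21.1 ± 2.94 in U937, 15.5 ± 1.60 in MOLM-14 and 15.1 ± 0.27 in KG-1. Only the HL-60 arrays were clearly above the array medians for SPI1, which has 1 probe set. RUNX1, by its brightest probe set, was nearly level. It was at 354 ± 19.9 in MOLM-14, 325 ± 17.5 in HL-60, 316 ± 6.84 in KG-1 and 268 ± 13.7 in U937. U937 was lower than each other line, and the other 3 did not differ beyond their spread (limma, adjusted p of 0.156 to 0.775). The next brightest RUNX1 probe set was not level, at 50.6 ± 4.84 in KG-1 and 16.6 ± 1.84 in U937. It was at 13.4 ± 1.19 in HL-60 and 7.24 ± 1.04 in MOLM-14, and only its KG-1 mean was above the array medians.

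**Figure D2:**
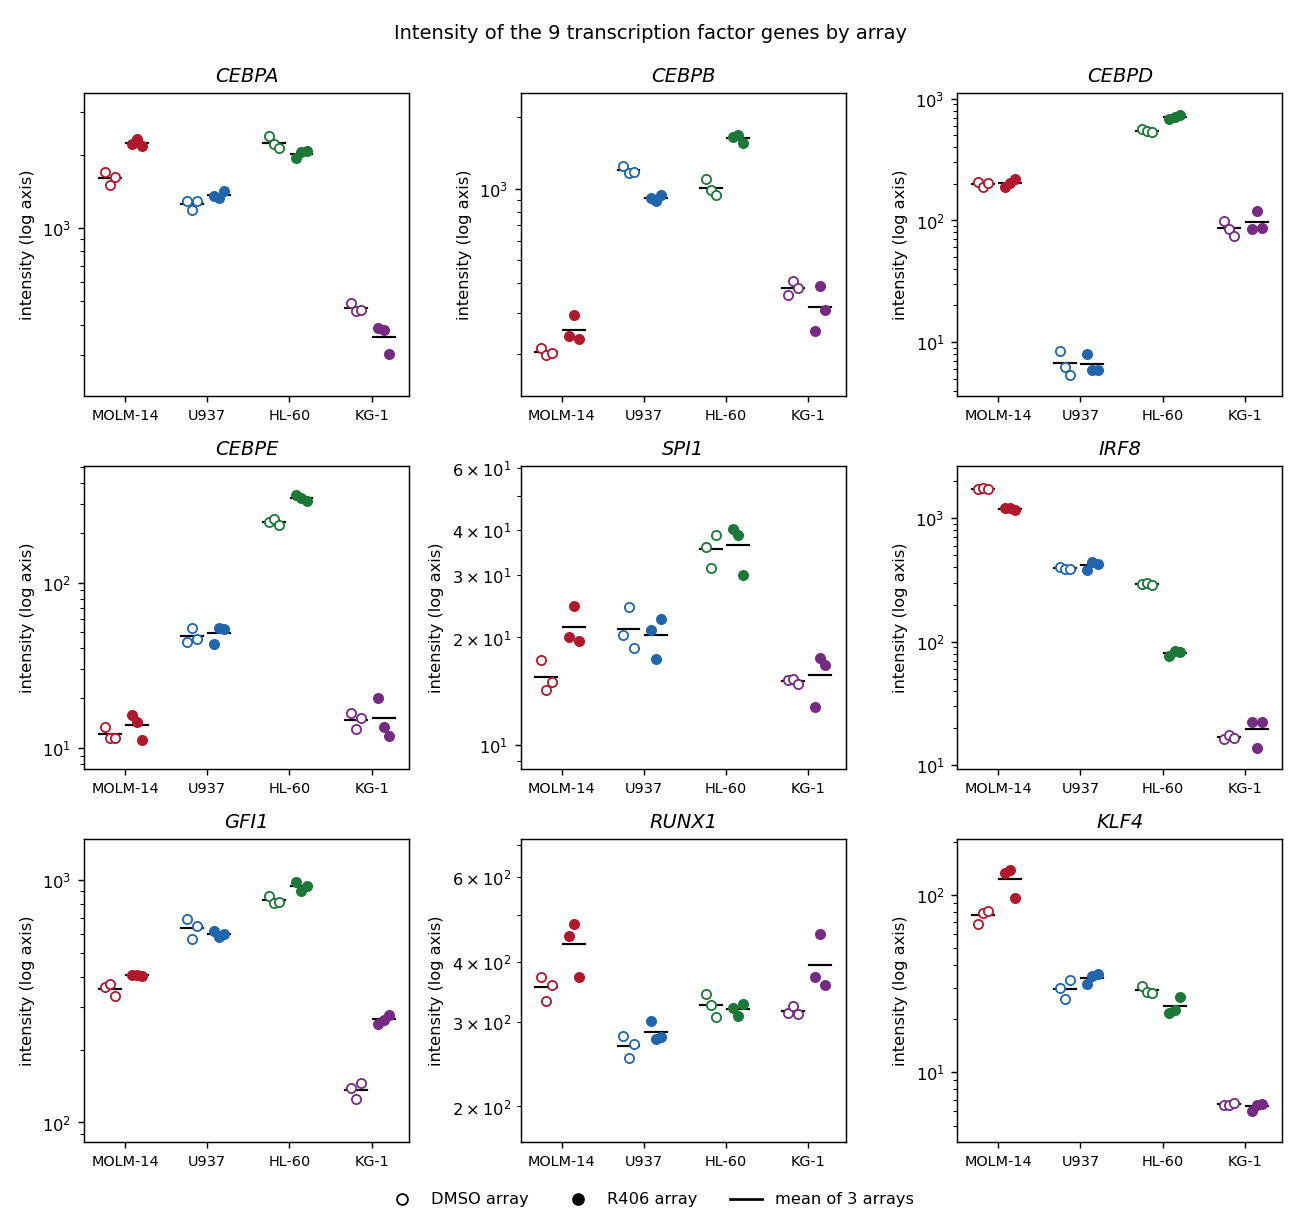
Intensity on each array (log axis) for the 9 genes, in the 4 lines, with DMSO arrays open and R406 arrays filled, and the mean of 3 arrays as a bar. IRF8 in HL-60 drops from 287 to 298 in DMSO to 77.0 to 84.3 in R406, and GFI1 in KG-1 goes from 124 to 145 up to 256 to 277.

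Under R406, CEBPA and CEBPB had called changes of opposite sign in different lines. Each other called member kept the same sign in every line where it was called, and CEBPD was not called in any line. In MOLM-14, 6 of 9 rose and 1 fell at an adjusted p under 0.05, against a background of 56.2% of all genes called, 31.1% higher and 25% lower. In HL-60, 2 rose and 1 fell, where 15.2% of all genes were called, 7.19% higher and 7.97% lower. In KG-1, 2 rose and 2 fell, near the background of 44.5% (23.6% higher and 20.9% lower). In U937, 1 fell, near the background of 11.5% (6.12% higher and 5.43% lower). The median log2 change of the members was 0.29 in MOLM-14, 0.048 in U937, 0.035 in HL-60 and 0.039 in KG-1, while that of all genes was 0.068, 0.0027, -0.0029 and 0.020. The arrays of both treatments were fully separate for 7 members in MOLM-14 (57.8% of all genes), 2 in U937 (34% of all genes), 7 in HL-60 (32.8%) and 3 in KG-1 (49.8%). Without MOLM-14 R406 replicate 2, the members called higher in MOLM-14 were 2, CEBPA and KLF4.

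**Figure D3:**
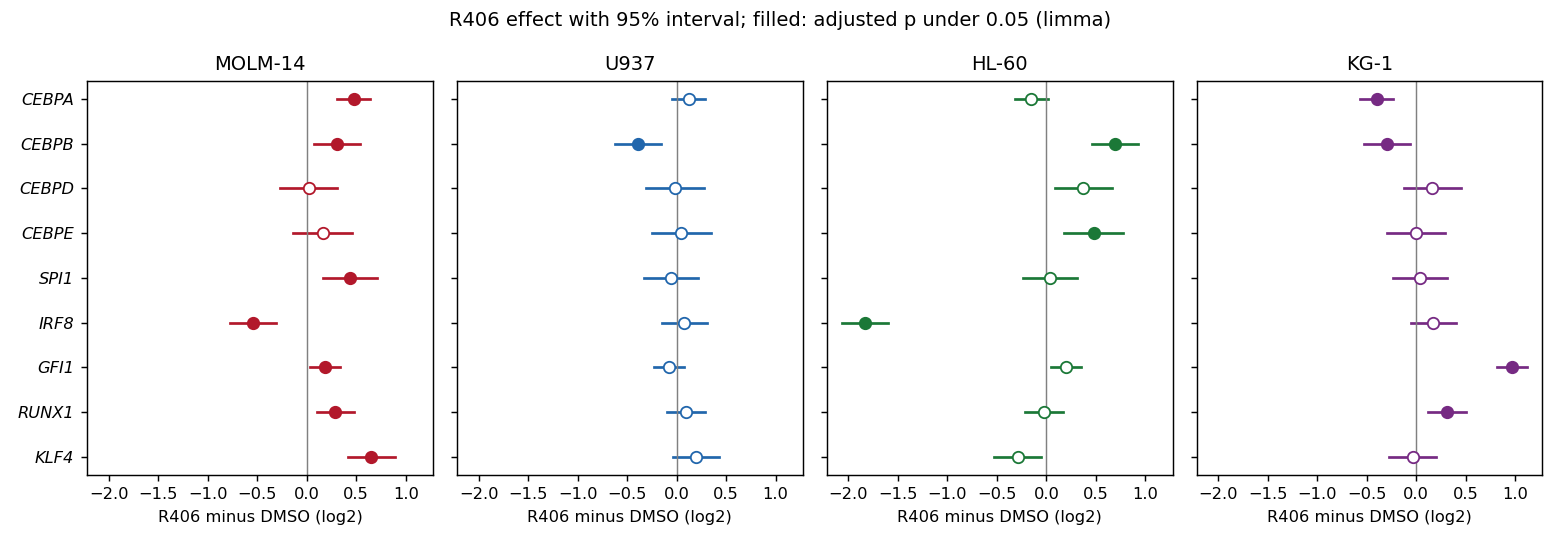
Change under R406 (log2 of intensity plus 1, R406 minus DMSO) of the 9 genes in each line, with the 95% interval from limma, and filled where the adjusted p is under 0.05. IRF8 in HL-60 (-1.83) and GFI1 in KG-1 (0.97) lie furthest from 0.

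CEBPA, the factor of the granulocyte and monocyte progenitor, rose in MOLM-14 and fell in KG-1. In MOLM-14 it was at 1695, 1502 and 1618 in DMSO and at 2205, 2312 and 2159 in R406. In KG-1 it was at 493, 453 and 459 in DMSO and at 388, 379 and 304 in R406. The groups did not overlap in either line, and the changes were 0.47 ± 0.080 (SE, limma, adjusted p = 2.35e-05) and -0.40 ± 0.080 (adjusted p = 0.000240). The values in U937 (0.12 ± 0.080) and HL-60 (-0.15 ± 0.080) did not pass the test. The arrays did not overlap there either, with R406 above DMSO in U937 and below it in HL-60. The effect in MOLM-14 exceeded that in KG-1 by 0.87 ± 0.11 (limma, adjusted p = 2.67e-06).

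CEBPB was the member called in all 4 lines, in opposite directions. In HL-60 it rose from 1096, 991 and 944 in DMSO to 1656, 1686 and 1558 in R406, and in U937 it fell from 1244, 1168 and 1176 to 911, 886 and 942. All arrays of the groups were separate in both lines. The changes were 0.69 ± 0.11 in HL-60 (limma, adjusted p = 0.000114) and -0.39 ± 0.11 in U937 (adjusted p = 0.0239), and their difference was 1.08 ± 0.16 (adjusted p = 6.48e-05). The U937 call was lost without any 1 of the 6 U937 arrays (adjusted p of 0.0511 to 0.0908, changes of -0.36 to -0.41) and with quantile normalization (-0.34, adjusted p = 0.0661). In MOLM-14 CEBPB was at 212, 199 and 202 in DMSO and 238, 293 and 232 in R406 (0.30 ± 0.11, adjusted p = 0.0234), where the groups did not overlap. That call ended without DMSO replicate 2 or 3 (0.29 and 0.30) or R406 replicate 2 (0.20, adjusted p = 0.158). In KG-1 it was at 356, 407 and 383 in DMSO and 251, 388 and 309 in R406 (-0.29 ± 0.11, adjusted p = 0.0359). These groups overlapped, and the value was -0.14 (adjusted p = 0.314) without KG-1 R406 replicate 1, while the call also ended without DMSO replicate 2 or 3 (-0.25 and -0.29), without R406 replicate 3 (-0.29) and in a fit of the KG-1 arrays alone.

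CEBPE and CEBPD were higher under R406 in HL-60, the line where they are most abundant, and CEBPE passed the test there. CEBPE was at 232, 243 and 223 in DMSO and 338, 325 and 310 in R406 in HL-60, with no overlap (0.48 ± 0.14, limma, adjusted p = 0.0244). Its call ended without HL-60 DMSO replicate 1 or 3 or R406 replicate 1 or 2, with changes of 0.45 to 0.48 (adjusted p of 0.0619 to 0.0827). CEBPE in the other 3 lines gave -0.0013 to 0.16. CEBPD in HL-60 was at 566, 542 and 534 in DMSO and 682, 704 and 741 in R406. These arrays did not overlap either, but the change of 0.37 ± 0.14 (95% interval 0.084 to 0.66) had an adjusted p of 0.0791. It passed in 5 of 32 alternatives: a fit of the HL-60 arrays alone (adjusted p = 0.00568), a pseudocount of 16 (adjusted p = 0.00945), the replicate block (adjusted p = 0.0326), and without KG-1 R406 replicate 2 (adjusted p = 0.0421) or U937 DMSO replicate 1 (adjusted p = 0.0458). In MOLM-14, U937 and KG-1, CEBPD gave 0.019, -0.016 and 0.16, none of which passed.

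SPI1 and RUNX1, the early factors, rose in MOLM-14. SPI1 was at 17.3, 14.2 and 15.02 in DMSO and 20.1, 24.5 and 19.5 in R406, all near or below the array medians, with no overlap (0.43 ± 0.13, limma, adjusted p = 0.00716). Without R406 replicate 2 the change was 0.34 (adjusted p = 0.0509). The SPI1 values in the other lines lay between -0.052 and 0.039 and did not pass. RUNX1 was at 371, 332 and 358 in DMSO and 452, 481 and 371 in R406 in MOLM-14, where the lowest R406 array and the highest DMSO array were nearly equal (0.29 ± 0.091, adjusted p = 0.00926). In KG-1 it was at 313, 324 and 312 in DMSO and 371, 456 and 357 in R406, with no overlap (0.31 ± 0.091, adjusted p = 0.00694). Without MOLM-14 R406 replicate 2 the MOLM-14 change was 0.21 (adjusted p = 0.0681), and without KG-1 R406 replicate 2 the KG-1 change was 0.20 (adjusted p = 0.0704). The MOLM-14 call also ended in a fit of the MOLM-14 arrays alone (adjusted p = 0.0571). The other 10 probe sets of RUNX1 had means of 5.48 to 24.1 over all arrays. Averaged with them, RUNX1 gave -0.012 in MOLM-14 (adjusted p = 0.857) and 0.038 in KG-1 (adjusted p = 0.589). The brightest of these 10 had its highest level in KG-1, at 50.6 ± 4.84 in DMSO and 64.2 ± 7.32 in R406 (0.34 ± 0.13, limma, adjusted p = 0.0379 over all single-symbol probe sets). It also rose in HL-60, from 13.4 ± 1.19 to 18.6 ± 1.59 (0.45 ± 0.13, limma, adjusted p = 0.0218), where the main probe set gave -0.026. In MOLM-14 it gave -0.27 ± 0.13 (limma, adjusted p = 0.0836), opposite in sign to the main probe set. Its means in HL-60 and MOLM-14 were below the array medians. Another of the 10 rose in MOLM-14 like the main probe set, from 15.7 ± 0.85 to 20.7 ± 3.17 (0.37 ± 0.089, limma, adjusted p = 0.00114). These means were also near or below the array medians.

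IRF8, the monocyte factor, fell in the lines HL-60 and MOLM-14. In HL-60 it was at 292, 298 and 287 in DMSO and 77.0, 84.3 and 83.1 in R406. This is the widest change of any member in any line, -1.83 ± 0.11 (limma, adjusted p = 1.24e-10), or 3.56-fold lower. In MOLM-14 it was at 1719, 1768 and 1734 in DMSO and 1207, 1206 and 1172 in R406 (-0.54 ± 0.11, adjusted p = 0.000195). Neither line's groups overlapped, and the R406 level in MOLM-14 was still above the DMSO level of each other line. The fall in HL-60 was deeper than that in MOLM-14 by 1.29 ± 0.16 (adjusted p = 3.48e-07). In U937 IRF8 was at 401, 390.5 and 389 in DMSO and 383, 441 and 423 in R406 (0.078 ± 0.11). In KG-1 it was at 16.4, 17.4 and 16.6 in DMSO and 22.4, 13.8 and 22.2 in R406, below or about the array medians (0.17 ± 0.11, adjusted p = 0.236). Without KG-1 R406 replicate 2 the KG-1 value was 0.39 (adjusted p = 2.63e-05).

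KLF4, the other monocyte factor, rose in MOLM-14, where IRF8 fell. It was at 69.0, 79.3 and 81.5 in DMSO and 133, 138 and 95.5 in R406, with no overlap (0.65 ± 0.11, limma, adjusted p = 2.88e-05). The dimmer KLF4 probe set also rose there, from 17.2 ± 1.51 to 22.6 ± 1.67 (0.38 ± 0.11, adjusted p = 0.00821 over all single-symbol probe sets). In HL-60 KLF4 was at 30.6, 28.3 and 28.03 in DMSO and 21.7, 22.5 and 26.5 in R406, with no overlap but no call (-0.29 ± 0.11, adjusted p = 0.0934). That value passed with averaged probe sets (-0.24, adjusted p = 0.0270) and without MOLM-14 R406 replicate 3 (adjusted p = 0.0276). KLF4 in U937 gave 0.20 ± 0.11 and in KG-1, at 6.04 to 6.70 on its arrays, -0.037 ± 0.11. The difference of the KLF4 effect between MOLM-14 and HL-60 was 0.94 ± 0.16 (adjusted p = 3.23e-05).

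GFI1, the repressor that favours neutrophils, rose in KG-1. It was at 139, 124 and 145 in DMSO and 256, 266 and 277 in R406, a gap wider than the spread of either group (0.97 ± 0.073, limma, adjusted p = 2.01e-10). The rise of 1.95-fold left GFI1 in KG-1 below its DMSO level in MOLM-14. In MOLM-14 it was at 362, 373 and 334 in DMSO and 405, 407 and 403 in R406, with no overlap (0.19 ± 0.073, adjusted p = 0.0340). That call ended without DMSO replicate 3 (0.14) or any R406 array (0.18 to 0.19), and in a fit of the MOLM-14 arrays alone (adjusted p = 0.0736). In HL-60 the arrays were at 859, 802 and 815 in DMSO and 986, 902 and 947 in R406 and did not overlap, but the change of 0.19 ± 0.073 had an adjusted p of 0.0801. It passed in 3 of 32 alternatives: with the dimmest genes left out (adjusted p = 0.0498), with a pseudocount of 16 (adjusted p = 0.0332) and with an intensity trend in the variance (adjusted p = 0.0481). In U937 the value was -0.079 ± 0.073.

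The R406 effect differed between lines for 5 of the 9 members by the moderated F test, CEBPA, CEBPB, IRF8, GFI1 and KLF4, where 54.9% of all genes differed. Of the 54 pairwise differences of effect, 23 passed. The share of all genes called was 43.8% for MOLM-14 against U937, 45.3% for MOLM-14 against HL-60, 33.5% for MOLM-14 against KG-1, 7.23% for U937 against HL-60, 33.3% for U937 against KG-1 and 35.7% for HL-60 against KG-1. GFI1 in KG-1 stood apart from each of the other lines, by 0.77 ± 0.10 over HL-60 (limma, adjusted p = 2.88e-06), 0.78 ± 0.10 over MOLM-14 and 1.04 ± 0.10 over U937. IRF8 in HL-60 was likewise lower than in each other line, by 2.00 ± 0.16 against KG-1 (adjusted p = 1.56e-09) and 1.91 ± 0.16 against U937. For CEBPD the F test did not pass (range of effects 0.39, adjusted p = 0.296), nor for CEBPE (0.48, adjusted p = 0.165), SPI1 (0.49, adjusted p = 0.112) or RUNX1 (0.34, adjusted p = 0.0790).

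A further list held partner and neighbouring transcription factors with regulators of C/EBP proteins, chosen for their roles. Earlier results of these data were known when this list was chosen, so its called shares are description only. Of its 42 measured genes, 19 rose and 11 fell in MOLM-14 (median 0.22), 3 rose and 5 fell in U937 (median -0.047), 14 rose and 3 fell in HL-60 (median 0.043), and 19 rose and 9 fell in KG-1 (median 0.12). The called share was 71.4% in MOLM-14, 19% in U937, 40.5% in HL-60 and 66.7% in KG-1, beside 56.2%, 11.5%, 15.2% and 44.5% of all genes, whose medians were 0.068, 0.0027, -0.0029 and 0.020. The early response factor EGR1 fell from 159 ± 29.0 to 13.5 ± 1.12 in MOLM-14 (-3.45 ± 0.19, limma, adjusted p = 2.51e-13) and rose from 48.9 ± 13.0 to 631 ± 91.0 in HL-60. EGR1 also fell in U937, from 42.0 ± 10.0 to 14.8 ± 1.14 (-1.42 ± 0.19, limma, adjusted p = 2.18e-05). TRIB2, a pseudokinase that promotes degradation of C/EBP alpha protein, rose from 20.8 ± 2.29 to 77.1 ± 4.88 in HL-60 (1.85 ± 0.095) and fell from 101 ± 4.72 to 76.5 ± 3.80 in U937. CEBPG, a short relative of the C/EBP factors, fell from 259 ± 20.2 to 127 ± 10.4 in KG-1 (-1.02 ± 0.080, adjusted p = 4.25e-10). ID1, an inhibitor of helix-loop-helix factors, fell there from 149.6 ± 27.04 to 25.0 ± 7.46, while ID2 rose by 1.49 ± 0.10. Neither change was particular to KG-1. ID1 also went from 52.3 ± 2.81 to 17.0 ± 1.64 in MOLM-14. ID2 means were higher in R406 in every line, going from 880 to 1725 in MOLM-14, 684 to 1229 in U937 and 515 to 959 in HL-60. DDIT3, the stress member of the C/EBP family, rose by 1.49 ± 0.11 in MOLM-14 and by 1.32 ± 0.11 in KG-1.

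Genes of the granulocyte and monocyte programmes, which these factors are known to regulate, were counted from lists chosen for their roles. Earlier results of these data were known when both lists were chosen, so their called shares are description and not independent evidence. Of 18 granulocyte and granule genes, 3 rose and 7 fell in MOLM-14 (median -0.21), 4 rose in U937 (median 0.090), 5 rose and 6 fell in HL-60 (median -0.029), and 6 rose and 1 fell in KG-1 (median 0.14). The called share was 55.6%, 22.2%, 61.1% and 38.9% in these lines, beside 56.2%, 11.5%, 15.2% and 44.5% of all genes. CSF3R, the G-CSF receptor, rose in MOLM-14 from 14.5 ± 2.79 to 63.5 ± 11.1 (2.06 ± 0.16, limma, adjusted p = 1.27e-10), while S100A9, a calcium binding protein of granulocytes and monocytes, fell from 111 ± 7.93 to 14.7 ± 3.04. In HL-60 the formyl peptide receptor FPR1 rose from 242 ± 46.2 to 799.5 ± 8.57, and the granule protein AZU1 fell from 160 ± 7.29 to 66.6 ± 2.00 (-1.25 ± 0.092). The AZU1 mean also went from 792 to 476 in MOLM-14, while AZU1 rose in U937 (0.33 ± 0.092, limma, adjusted p = 0.0221). In KG-1 myeloperoxidase, MPO, rose from 28.5 ± 3.63 to 69.2 ± 5.92 (1.25 ± 0.15, adjusted p = 2.74e-07). MPO fell in MOLM-14, from 44.0 ± 3.68 to 13.0 ± 5.08 (-1.74 ± 0.15, limma, adjusted p = 8.70e-10). In HL-60, where MPO was highest, its mean went from 6416 to 4981.

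Of 22 monocyte and macrophage genes, 14 rose and 3 fell in MOLM-14 (median 0.58), 10 rose and 2 fell in U937 (median 0.27), 10 rose and 5 fell in HL-60 (median 0.25), and 8 rose and 4 fell in KG-1 (median 0.18). The called share was 77.3%, 54.5%, 68.2% and 54.5%, beside the same shares of all genes. CSF1R, the M-CSF receptor, rose in MOLM-14 from 17.1 ± 0.29 to 74.1 ± 11.1 (2.04 ± 0.11, limma, adjusted p = 2.39e-13), and its values in the other lines did not pass. In HL-60, where IRF8 fell, the chemokine receptors CCR2 and CX3CR1 fell by 1.88 and 1.11 on the log2 scale, whereas CD14 rose by 1.63 ± 0.13. In MOLM-14, where IRF8 also fell, the 2 receptors went in opposite directions. CX3CR1 rose there from a mean of 299 to 1422 (2.25 ± 0.13, limma, adjusted p = 4.82e-13), while the CCR2 mean went from 135 to 64.1. A link of these receptors to IRF8 was not tested. The integrin chain ITGAM rose in MOLM-14, U937 and HL-60 and fell in KG-1, from 487 ± 20.5 to 139 ± 2.54 (-1.80 ± 0.085, adjusted p = 1.20e-13). No test of a list was made.

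**Figure D4:**
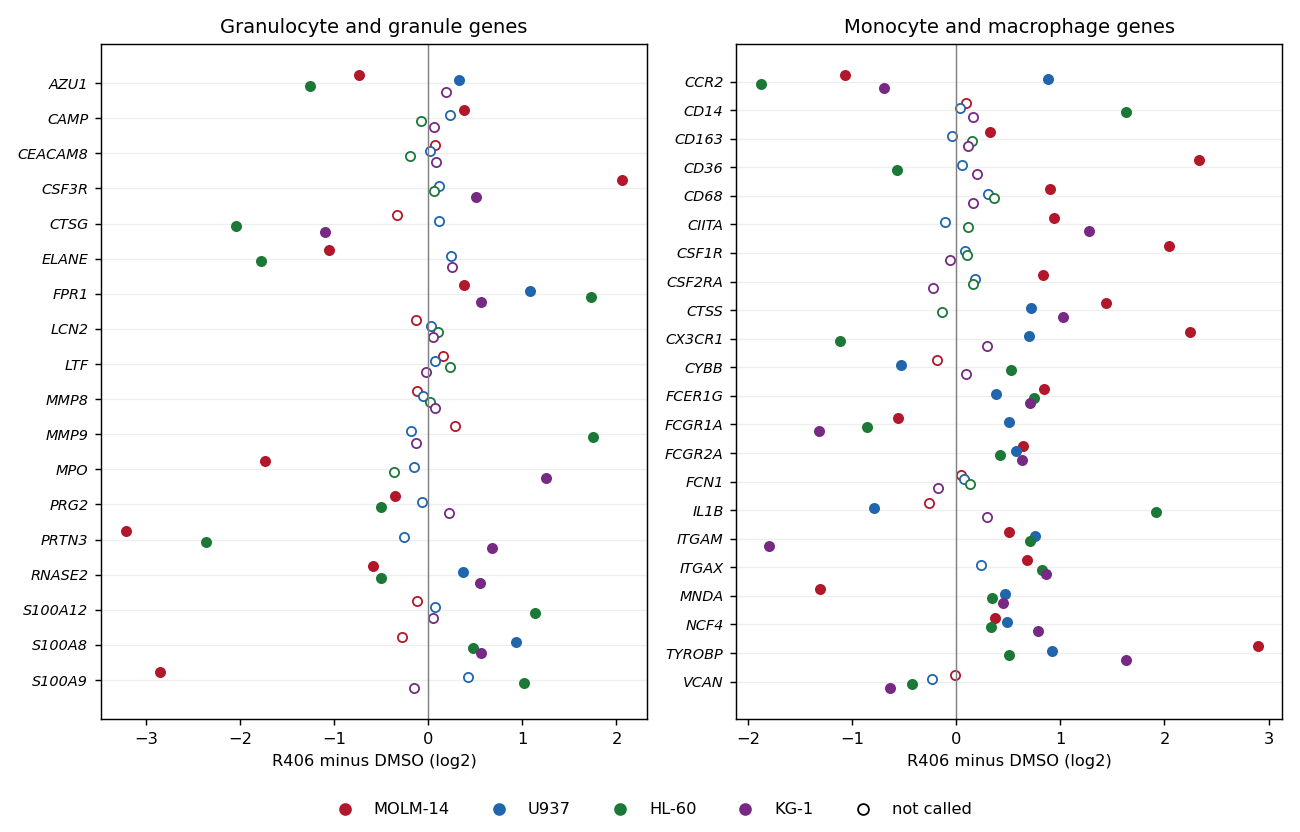
R406 minus DMSO (log2) of each measured granulocyte and granule gene (left) and monocyte and macrophage gene (right) in the 4 lines, filled where called at an adjusted p under 0.05. PRTN3 and S100A9 lie furthest to the left in MOLM-14 (-3.21 and -2.85), and TYROBP furthest to the right (2.90).

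The genes most like each member were found by Pearson correlation of log2 values over the 24 arrays, among genes whose highest group mean was at least 100. The arrays fall into 4 lines, so these values mostly follow the differences between lines and carry no p. IRF8 was most like AZU1 (r = 0.994), and the DMSO means of AZU1 were 792 in MOLM-14, 186 in U937, 160 in HL-60 and 9.57 in KG-1. CEBPE was most like SERPINA1, the gene of alpha-1 antitrypsin (r = 0.992), which was at 254 ± 8.05 in HL-60 DMSO and 533 ± 20.9 in HL-60 R406. CEBPA was most like EPB41L3 (r = 0.984), CEBPD like the kinase gene PRKCA (r = 0.980), KLF4 like EIF3K (r = 0.976) and then ICAM4 (r = 0.974), CEBPB like CLEC5A, a myeloid receptor (r = 0.963), GFI1 like MS4A3, a gene of granulocyte and monocyte progenitors (r = 0.960), SPI1 like HGS (r = 0.950) and RUNX1 like PNISR (r = 0.931). Among the members themselves, the closest pair was IRF8 and KLF4 (r = 0.955), then CEBPE and SPI1 (r = 0.889), and the most opposed pair was CEBPB and RUNX1 (r = -0.64). IRF8 and KLF4 shared high DMSO levels in MOLM-14 and low ones in KG-1, but their R406 effects in MOLM-14 had opposite signs.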

How the data were processed

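The deposited values are intensities per probe set that the authors made with RMA, per the submitters' processing notes, which give no version. The values run from 3.41 to 12686 and were read as linear. Tests used log2 of the intensity plus 1, so fold changes of dim genes are understated. Left out of 22277 probe sets were 62 controls, 568 that carry several symbols and 1923 that carry none in the platform annotation, which gave 12165 genes, each read from its probe set of highest mean.

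limma 3.58.1 (R 4.3.3) fitted the 8 group means in 1 model with 16 residual degrees of freedom, so a gene has 1 variance for all groups. Benjamini-Hochberg adjustment ran over all genes, and an adjusted p under 0.05 was called. The number of arrays limits the precision. The fit was tested on simulated data with independent noise and 1 variance per gene, as the model assumes. That test cannot speak to groups of unequal spread. The text names all 9 members, the 3 genes most like each, and up to 4 called genes per list and line, of which a part is given. The members and lists were chosen with earlier results of these data known. Promoter sequences are from RefSeq, GRCh38.p14. Alternatives are in the closing section.

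Replicate numbers were not taken to pair samples: deviations of same-numbered DMSO and R406 arrays correlated between -0.085 and 0.069, and those of differently numbered arrays between -0.13 and 0.15.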

Additional observations from a re-analysis of the deposited data

Results flagged for a closer look

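The R406 effect differed between lines, by limma's moderated F test, for 5 of the 9 members, where 54.9% of all genes differed, so the count is near the background. The range of the effect over the 4 lines was 2.00 on the log2 scale for IRF8 (adjusted p = 5.79e-10), 1.08 for CEBPB (adjusted p = 5.90e-06), 1.04 for GFI1 (adjusted p = 7.07e-08), 0.94 for KLF4 (adjusted p = 0.000183) and 0.87 for CEBPA (adjusted p = 5.13e-06). CEBPA and CEBPB had called changes of opposite sign in different lines, while the called changes of GFI1, KLF4 and IRF8 had 1 sign each. Groups of 3 arrays are too few for a test of single outlying arrays.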

How the results depend on the processing

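Of 1701 values of single members under the alternatives, 1653 kept their side of the threshold, 29 lost a call, 18 gained one, and 1 called value lost its call and changed sign: RUNX1 in MOLM-14 was -0.012 with averaged probe sets. Of the 672 values under alternatives for changes that were not called, 27 changed sign, over 10 of 21 such changes, and none of the 27 was called. The 9 members differed between DMSO groups under every alternative run. The count of members lower in U937 went from 1 to 0 with quantile normalization. Members higher in HL-60 went from 2 to 4 with a pseudocount of 16, members lower in HL-60 from 1 to 2 and members higher in KG-1 from 2 to 1 with averaged probe sets, and members lower in KG-1 from 2 to 1 in a fit of the KG-1 arrays alone. Leaving out 1 array at a time gave 2 to 6 members higher in MOLM-14, 0 to 1 lower in U937, 1 to 3 higher and 1 to 2 lower in HL-60, 1 to 2 lower in KG-1, and 5 to 6 with a different effect between lines. With the replicate block, 6 members rose and 1 fell in MOLM-14, and it moved the adjusted p of CEBPD in HL-60 to 0.0326 and of the difference between lines for CEBPE to 0.0453, with no other call changed. Median centring shifted the median change of all genes in KG-1 from 0.020 to -0.054, and moved the share of U937 calls that were higher from 53.0% to 40.7%, with no call of a member changed. The causes were not tested. Values near the array medians, as for SPI1, KLF4 in KG-1 and CEBPD in U937, limit what can be said of change there.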
